A study of Mus musculus with 4 samples.

Results

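The 8 genes described here are the cholesterol synthesis genes Mvk, Mvd, Fdps, Fdft1, Sqle, Cyp51 and Ebp, and Srebf2, which encodes the transcription factor that drives them. They were picked by symbol, with earlier results of these data known, so member counts set beside shares of all genes are descriptions only. All 8 were measured on every array, out of 6327 genes measured on every array. Expression was compared between an NIH3T3 line transfected with Erbb2, labelled as overexpressing it, and untransfected NIH3T3 cells, labelled as having normal Erbb2 expression. NIH3T3 cells are mouse embryonic fibroblasts kept as an established line, and Erbb2 (HER2) is a growth factor receptor with tyrosine kinase activity. Both RNAs were put together on each of 4 arrays. RNA of the Erbb2 line was labelled with Cy5 for the first 2 arrays and with Cy3 for arrays 3 and 4. The sources used here do not give how the transfected line was made, its promoter or whether it is 1 clone. By the series design these are technical replicate arrays, so each line is 1 biological sample. Errors, intervals and p-values below cover only the spread between hybridisations, and other differences between both lines cannot be told apart from Erbb2.

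Cells build cholesterol from acetyl-CoA through mevalonate, isoprenoid diphosphates, squalene and lanosterol. When membrane cholesterol is low, the SREBP2 protein encoded by Srebf2 is carried from the endoplasmic reticulum to the Golgi, cut there and released to the nucleus, where it raises transcription of the pathway's genes. Growing cells, fibroblasts included, need the pathway for new membrane, and its isoprenoids also anchor proteins of the RAS family to membranes.

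The values are log2 ratios whose direction no label states. Ratios at the cap are positive where the Erbb2 line was in Cy5 and negative where it was in Cy3, so the sign of 1 dye orientation had been turned. If the quotient was Cy5 over Cy3, as is customary, the likely direction is Erbb2 line over untransfected line. A value below 0 is therefore described as lower in the Erbb2 line, and every sign would turn together if the direction were the opposite. A ratio says nothing of a gene's level, so the presence of fibroblast markers could not be checked as a level. No probe was named for Erbb2, so its own ratio was not analysed here. The ratios of 2 arrays correlated weakly across the 6327 genes, which are not independent replicates, with Pearson's r from 0.123 to 0.202 and Spearman's rho from 0.091 to 0.208. Because the RNA came from bulk cultures, fewer cells expressing a gene and less RNA per cell cannot be told apart.

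SREBP2 binds sterol regulatory elements, usually beside boxes for the factors NF-Y and Sp1, so the promoters of the members are shown first. RefSeq promoter windows on GRCm38.p6, from 250 bases before to 50 after the start site, were found for 5 members, namely Mvk, Mvd, Cyp51, Ebp and Srebf2. The 150 bases before the start site are printed 5′ to 3′ on the gene's strand, with capitals for the NF-Y box CCAAT (read as ATTGG on the other strand) and the GC box GGGCGG, which reads CCGCCC on the other strand.
Mvk (chr5:114444119-114444268, + strand): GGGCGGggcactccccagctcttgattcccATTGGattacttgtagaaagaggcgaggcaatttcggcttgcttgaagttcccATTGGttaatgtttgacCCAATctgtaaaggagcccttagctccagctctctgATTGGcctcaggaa
Mvd (chr8:122443423-122443572, - strand): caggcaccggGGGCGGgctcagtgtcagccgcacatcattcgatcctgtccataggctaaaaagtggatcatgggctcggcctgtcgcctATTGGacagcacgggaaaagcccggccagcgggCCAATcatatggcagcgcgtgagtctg
Cyp51 (chr5:4104698-4104847, - strand): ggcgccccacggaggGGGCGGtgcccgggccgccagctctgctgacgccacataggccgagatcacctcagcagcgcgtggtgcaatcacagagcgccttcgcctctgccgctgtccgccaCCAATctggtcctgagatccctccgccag
Ebp (chrX:8193513-8193662, - strand): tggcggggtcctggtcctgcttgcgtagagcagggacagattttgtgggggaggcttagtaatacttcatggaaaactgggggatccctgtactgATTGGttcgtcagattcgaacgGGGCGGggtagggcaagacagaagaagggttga
Srebf2 (chr15:82147119-82147268, + strand): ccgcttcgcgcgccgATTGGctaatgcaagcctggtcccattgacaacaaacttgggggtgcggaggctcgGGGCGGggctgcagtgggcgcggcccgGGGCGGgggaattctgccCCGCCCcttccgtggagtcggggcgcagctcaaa

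An NF-Y box stood in 5 of the 5 full windows, against 37.4% of the 32851 RefSeq promoter windows of the same length. A GC box also stood in 5 of 5, against 35.7%. Mvk, whose product phosphorylates mevalonate, had 5 NF-Y boxes, of which 4 fall in the printed stretch. Mvd, whose expression ratio was near 0, had 2. Srebf2 had 5 GC boxes and 1 NF-Y box. The sterol regulatory element was searched on both strands in the form TCACNCCAC alone, which was in 0 of the 5 windows and in 1.24% of all windows. Other forms of the element were not searched, and a form this rare is seldom met in 5 windows. Its absence therefore does not show that these promoters lack such an element. These are matches of letters only, and the arrays did not measure binding.

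Of the 8 members, 7 had a mean log2 ratio below 0, as did 56.1% of all genes. The largest differences were those of Mvk and Ebp, at 2.93-fold and 2.77-fold lower on average, both with 1 array on the other side of 0. Sqle, Cyp51, Fdft1 and Fdps lay close together, from 1.76-fold to 1.66-fold lower, and each was below 0 on every array. Srebf2 was 1.34-fold lower, also on every array. Mvd had a mean near 0, smaller than its spread. No member passed the test over all genes. The test was limma's, with a dye term and Benjamini-Hochberg adjustment; it called 0 of 6327 genes (0%), and the smallest adjusted p of a member was 0.396, for Mvk.

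The mevalonate steps come first in the pathway. Mvk had log2 ratios of 0.37, -1.89, -3.22 and -1.45 on arrays 1 to 4. Array 1 thus gave a value just above 0 and array 3 the lowest, with no agreement on the size. The mean was -1.55 ± 1.48 (SD, n = 4 arrays), and limma's interval ran from -2.87 to -0.23 at 95%. Without array 3 the fitted mean of Mvk was -1.11, and without array 2 it was -0.98. Mvd encodes the decarboxylase that makes isopentenyl diphosphate, and its ratios were -0.12, 0.39, -0.33 and 0.23. Both signs appeared in each dye orientation. Its mean was 0.04 ± 0.33 (SD, n = 4 arrays), with an interval from -0.71 to 0.79. A change of the size seen for Sqle, at -0.82, lies outside that interval, while changes between its ends do not.

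Fdps encodes farnesyl diphosphate synthase, which makes the isoprenoid that feeds both sterols and protein prenylation. Its ratios were -0.69, -0.81, -1.04 and -0.39, all below 0. The mean was -0.73 ± 0.27 (SD, n = 4 arrays), and the means of both orientations were nearly equal, at -0.75 with the Erbb2 line in Cy5 and -0.72 in Cy3. Fdft1 encodes squalene synthase, the first step given over to sterols. Its ratios were -0.37, -1.38, -0.72 and -0.64, with array 2 the lowest. The mean was -0.78 ± 0.43 (SD, n = 4 arrays). Limma's intervals of both genes reached 0, ending at 0.01 for Fdps and 0.02 for Fdft1.

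Sqle encodes squalene epoxidase, a rate-limiting enzyme of the later pathway. Its ratios were -0.51, -0.13, -1.41 and -1.22, all below 0, with the values of arrays 3 and 4 lower than those of arrays 1 and 2. The orientation means were -0.32 in Cy5 and -1.31 in Cy3, and the overall mean was -0.82 ± 0.60 (SD, n = 4 arrays). Cyp51 encodes the demethylase that acts on lanosterol, and its gene values were -0.57, -0.63, -1.03 and -0.89. These had the smallest SD among the members, with a mean of -0.78 ± 0.22 (SD, n = 4 arrays). Cyp51 is the only member with 2 probes. Its first probe gave -1.38, -0.63, -1.03 and -0.92. Its second probe had values on arrays 1 and 4 alone, 0.23 and -0.87, so the probes differed in sign on array 1 and were close on array 4. The gene value of -0.57 on array 1 averages both probes, while arrays 2 and 3 rest on the first, so the small SD depends on this averaging. The first probe alone gave a mean of -0.99 and ran from -1.38 to -0.63, a wider range than that of the gene values.

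Ebp encodes the isomerase that moves a double bond in the sterol ring, late in the pathway. Its ratios were -2.21, 0.86, -2.09 and -2.45. Arrays 1, 3 and 4 were close together, and array 2 stood far above them. The mean was -1.47 ± 1.56 (SD, n = 4 arrays), with an SD larger than the mean's size. Without array 2 the fitted mean was -2.24, and without array 1 it was -0.70. Srebf2 had -0.64, -0.64, -0.20 and -0.22. Its values matched within each dye orientation and were nearer 0 with the Erbb2 line in Cy3. The mean was -0.42 ± 0.25 (SD, n = 4 arrays), with a limma interval from -1.11 to 0.27.

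**Figure D1:**
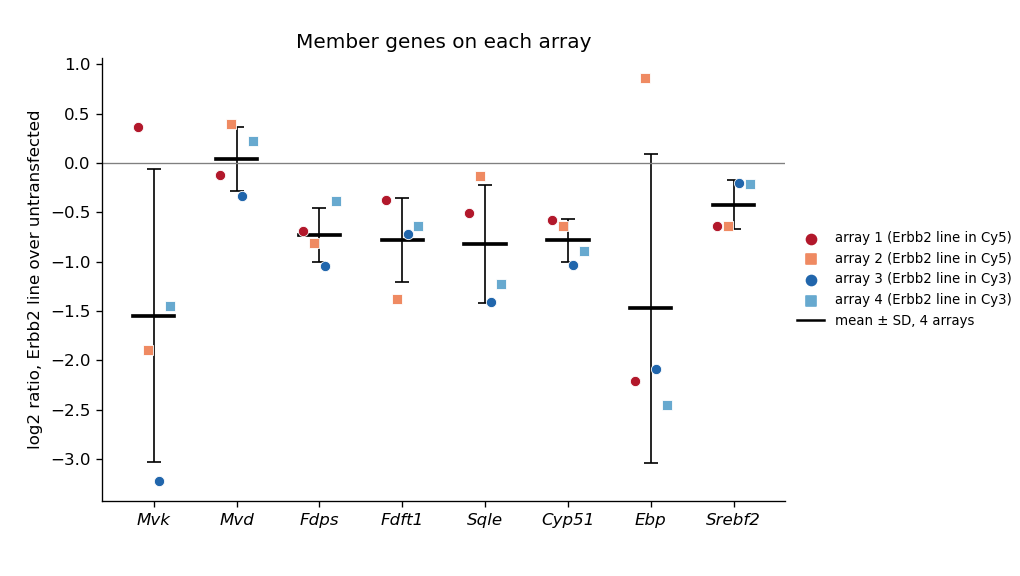
Log2 ratio of the Erbb2 line over the untransfected line (y axis) for the 8 members (x axis) on each of 4 arrays (points, coloured by array and dye), with the mean (thick bar) and SD over arrays (error bar). Fdps, Fdft1, Sqle, Cyp51 and Srebf2 lie below 0 on every array, while Mvk has array 1 at 0.37, Ebp has array 2 at 0.86 and Mvd straddles 0.

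Ordered by mean, Mvk and Ebp were lowest, Sqle, Cyp51, Fdft1 and Fdps followed, and Srebf2 and then Mvd were highest. The ranges of neighbours in this order overlapped over the arrays. Of all genes tested, 2.61% had a lower mean than Mvk and 2.89% a lower mean than Ebp. For Sqle, Cyp51, Fdft1 and Fdps the share was 11.4%, 12.4%, 12.6% and 13.9%, for Srebf2 26.9% and for Mvd 59.1%. The median of the 8 member means was -0.78, against -0.08 for all genes. A mean below -1 was found for 2 of 8 members and for 7.7% of all genes. Both of these, Mvk and Ebp, were among the members with the largest spread.

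Below 0 on all 4 arrays were 5 of 8 members, namely Fdps, Fdft1, Sqle, Cyp51 and Srebf2, against 13% of all genes. Above 0 on all 4 were 0 members, against 9.58% of all genes. At an unadjusted limma p under 0.05 and lower there were 4 members, against 7.49% of all genes. Limma's unadjusted p was 0.0294 for Mvk, 0.0313 for Sqle, 0.0335 for Cyp51 and 0.0421 for Ebp. The other members had 0.0514 for Fdps, 0.0538 for Fdft1, 0.179 for Srebf2 and 0.893 for Mvd. Adjusted p-values from limma ran from 0.396 to 0.961 over the 8 members. Leaving out array 1, 2, 3 or 4 left 1, 1, 0 and 1 members at an unadjusted limma p under 0.05. The share of all genes in those fits was 10.4%, 5.2%, 8.93% and 15.6%, near the members' share.

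Averaged over the 8 members, the ratio was -0.59, -0.53, -1.26 and -0.88 on arrays 1 to 4, with a mean of -0.81 ± 0.33 (SD, n = 4 arrays). Array 3 gave the lowest value and arrays 1 and 2 the highest. The average was -0.56 with the Erbb2 line in Cy5 and -1.07 in Cy3, so the size of the average differed between orientations while its sign did not. The members did not share this difference. The Cy5 mean minus the Cy3 mean was largest for Ebp (1.60) and Mvk (1.57), which had the largest spread. It was 0.99 for Sqle, 0.36 for Cyp51 and 0.19 for Mvd. For Fdps (-0.03), Fdft1 (-0.195) and Srebf2 (-0.43) it went the other way. Means below 0 in both orientations were found for 7 members, against 32.2% of all genes. The dye term itself passed for 0 of the 6327 genes, so its failing to pass for the members says nothing particular to them. Its adjusted limma p-values for the members were at least 0.868. Whether the dye gave the difference in size cannot be told from these arrays. The array medians over all genes were 0.10, -0.01, -0.14 and -0.16. With each array centred on its median, 5 of 8 members were still below 0 on all 4 arrays (all genes 11.3%), and 3 members were lower at an unadjusted limma p under 0.05 (all genes 6.57%). Ebp had an unadjusted p of 0.0533 in that fit. After centring, Srebf2 had -0.06 on array 3 and -0.05 on array 4.

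Where each probe lies in the deposited table bears on these values. Mvk, Mvd and Ebp lie in the first 6000 rows, in which all columns line up as deposited. In those rows 12.2% of genes had a mean below -1. The other 5 members lie further down, where arrays 2 to 4 were read 3 rows higher (4 for the second Cyp51 probe). No label states these offsets, which were themselves read from the values. The row match is described around each of the 9 member probes, over all probes within 1000 rows either side. Some of these windows overlap, and they are no separate test of the offsets. In 9 of 9 windows the mean correlation of array 1 with arrays 2 to 4 was highest at the offset used, among 13 offsets tried. It lay between 0.069 and 0.167 at that offset, and the highest value at any other offset was 0.043. For the probes moved back it lay between -0.024 and 0.003 as deposited. These correlations are across probes of the same arrays and describe the row match only.

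**Figure D2:**
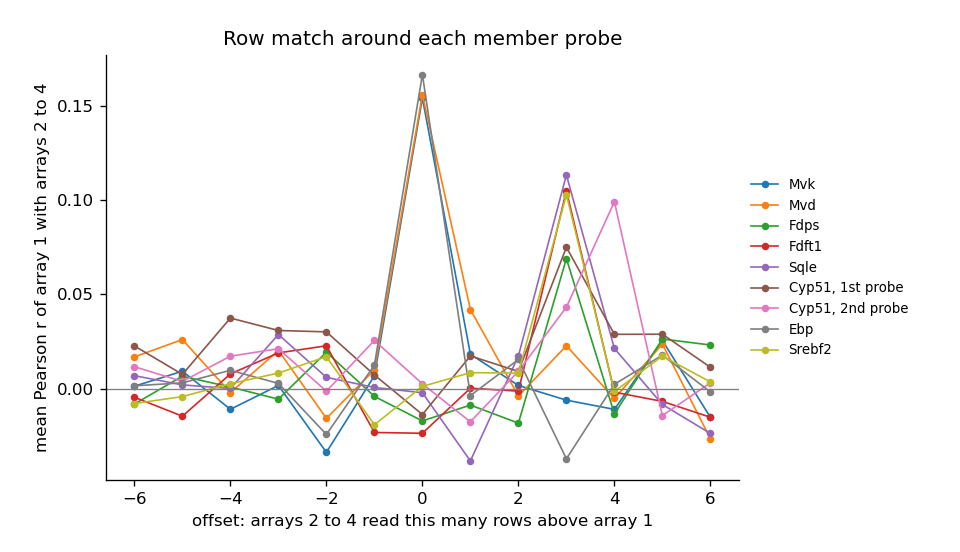
Pearson correlation of array 1 with each of arrays 2 to 4, averaged (y axis), over the rows around each member probe, for offsets of -6 to 6 rows (x axis), with 1 line per probe. The lines of Mvk, Mvd and Ebp peak at 0, those of Fdps, Fdft1, Sqle, Srebf2 and the first Cyp51 probe at 3, and that of the second Cyp51 probe at 4.

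The sign of some members changed with the row reading. Read as deposited, Fdps had -0.69, 0.96, 2.18 and -0.34, with a mean of 0.53. Sqle had -0.51, 1.19, 0.48 and 0.08, with a mean of 0.31. Fdft1 kept a mean below 0, at -0.18, with 1 array above 0. Srebf2 had no value on array 2 as deposited, and -0.64, -0.61 and -1.34 on arrays 1, 3 and 4. Below 0 on all 4 arrays after the move were 5 of these 5 members, against 10.9% of the genes with all probes in rows moved back. As deposited, 4 of the 5 had a value on every array, and 1 of these 4, Cyp51, was below 0 on all of them (-0.57, -0.52, -0.22 and -1.63).

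**Figure D3:**
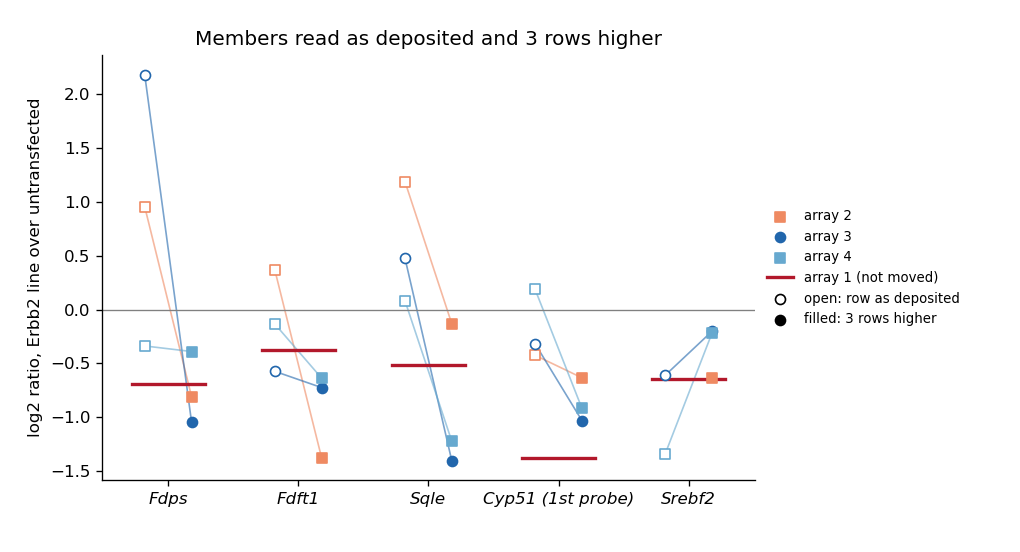
Log2 ratios of the 5 members from the lower rows (x axis; first probe of Cyp51) on arrays 2 to 4, as deposited (open) and read 3 rows higher (filled), with array 1 as a bar. Fdps and Sqle move from means of 0.53 and 0.31 to values below 0 on each array, and Srebf2 has no open point for array 2.

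Few of the remaining genes of the pathway were measured on every array. Of 14 other sterol synthesis enzymes, 4 were measured on all arrays, 3 on fewer and 7 had no probe named for them here. Their median was 0.06, with 2 of 4 means below 0 and 0 below 0 on every array. Hmgcs1, the HMG-CoA synthase gene at the head of the pathway, had -2.30, 0.65, 1.41 and -0.23, with a mean of -0.12 ± 1.60 (SD, n = 4 arrays). Its values lay on both sides of 0, and their SD was larger than that of any member. Lbr, a sterol reductase gene of the nuclear envelope, had the highest mean, 0.21 ± 1.27. Pmvk, which acts between Mvk and Mvd, had 0.63, 0.74, 0.50 and -1.22. Dhcr7, the reductase of the last step, had a mean of -0.04 ± 0.30. Msmo1, a sterol methyl oxidase gene, had 1.05, -2.75 and -1.21 on arrays 1 to 3 and no value on array 4. Tm7sf2 had 0.21, 4.32 and -0.44 on arrays 1 to 3, and Sc5d had 0.50 on array 4 alone.

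Of 11 genes listed for the control of SREBP2 and its partner factors, 3 were measured on all arrays, with means from -0.20 to -0.05 and a median of -0.19. Scap, the escort protein that carries SREBP2 to the Golgi, had 0.02, 0.42, -0.37 and -0.27, with a mean of -0.05 ± 0.36 (SD, n = 4 arrays). Insig2, which holds that complex back when sterol is plentiful, had a mean of -0.20 ± 0.62. Mbtps1, the first of the cutting proteases, had -0.17, -3.30 and -0.56 on arrays 1, 3 and 4. Nfyc, a subunit of NF-Y, had 0.43, 2.08 and 2.13 on arrays 1, 2 and 4. Nfyb, another subunit, had 0.09, -1.36 and -0.63 on the same arrays. Nfya, a further subunit, had -1.58 and -0.93 on arrays 1 and 3. Sp1 had 0.22, 1.01 and 0.81 on arrays 1, 3 and 4.

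Among genes of cholesterol uptake, storage and transport, 6 of 13 were measured on all arrays, with a median of -0.26, and 2 were lower at an unadjusted limma p under 0.05. Npc2, which moves cholesterol out of lysosomes, had -0.968, -1.60, -1.64 and -0.996. All arrays were low and close together, at -1.30 ± 0.37 (SD, n = 4 arrays; limma adjusted p = 0.32). The other was Lrp1, a lipoprotein receptor gene, at -0.93 ± 1.20 (limma adjusted p = 0.391). Lrp1, singled out after its values were seen, was above 0 on array 2 (0.35) and lowest on arrays 3 and 4 (-1.60 and -2.25). Mylip, which marks the LDL receptor for breakdown, had the highest mean of the list, 0.08 ± 2.53.

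The non-sterol isoprenoid branch, which starts from the product of Fdps or its precursor, had 6 of 10 genes measured on all arrays and a median of 0.04. Dhdds, of dolichol synthesis, was the lowest at -0.39 ± 0.32 and was below 0 on every array. Rabggtb, a subunit of a prenyltransferase for RAB proteins, was the highest at 0.92 ± 1.50. Fatty acid synthesis genes, many of them targets of the related SREBP1, had 10 of 14 measured and a median of -0.13. Below 0 on every array were 2 of these 10, Elovl5 among them, and 1 was above 0 on every array. Elovl5, an elongase of polyunsaturated fatty acids, had -1.01 ± 1.27, with array 3 at -2.88 and array 4 at -0.02. Elovl6, an elongase of saturated fatty acids, had 0.38, 0.46, 0.54 and 0.65, above 0 on every array, with a mean of 0.51 ± 0.11. Of 7 genes of cholesterol efflux, 2 were measured, Nr1h3 (-0.57 ± 1.87) and Apoe (-0.47 ± 1.47), with both signs each.

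Over these 6 lists, 31 of 69 genes were measured on all arrays. Of the 31, limma called 0, and 2 were lower and 0 higher at an unadjusted p under 0.05, against 11.5% of all genes either way. Below 0 on every array were 4 of the 31, against 13% of all genes. The median of the 31 was -0.12, near the -0.08 of all genes. The difference between the members and the other genes of the pathway was not tested.

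**Figure D4:**
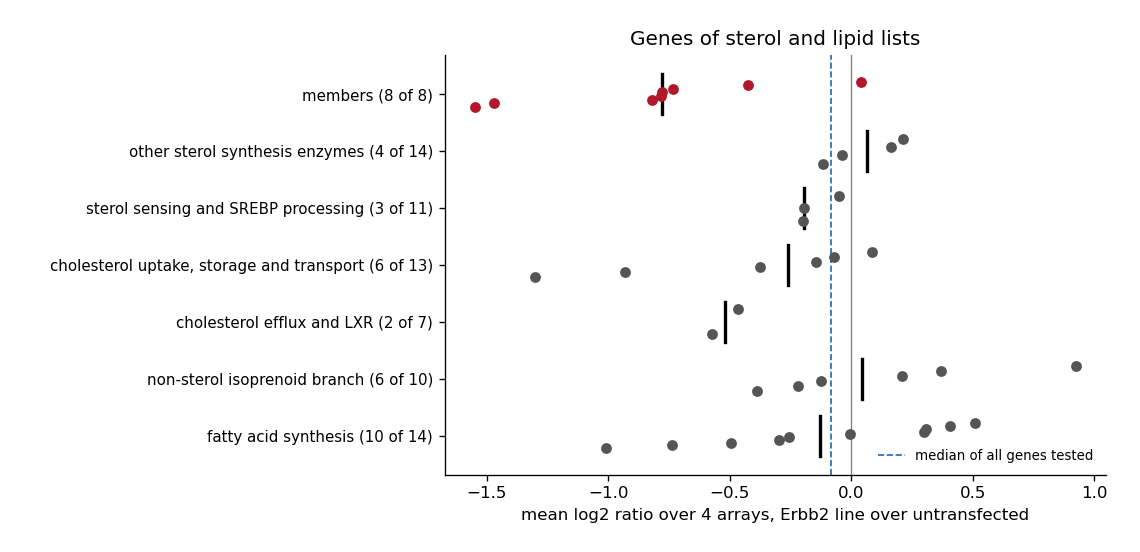
Mean log2 ratio over 4 arrays (x axis) of each measured gene (points) in the member list and the 6 other lists (y axis, with the number measured of the number listed), with the list median (black bar) and the median of all genes (dashed line). The members' median is -0.78, and the medians of the other lists lie between -0.52 and 0.06.

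Across all 4 arrays, the genes nearest to the average profile of the members were Lxn, Pgpep1 and Pmm1, at Euclidean distances of 0.273, 0.296 and 0.297 in log2 units among 6319 other genes. With 4 arrays such a likeness is a description only. Markers of other cell types were few. Leukocyte markers had 3 of 9 measured with a median of -0.22, adipocyte markers 3 of 8 (-0.64), epithelial markers 3 of 7 (0.35) and hepatocyte markers 3 of 6 (-0.73). At an unadjusted limma p under 0.05, Lyz2 of the leukocyte list (-1.17 ± 0.70) and Apoa1 of the hepatocyte list (-0.83 ± 0.56) were lower and Cldn3 of the epithelial list (0.86 ± 1.0) was higher, and 0 were called. Of the fibroblast markers, 7 of 12 were measured, with a median of 0.24. Col1a1, Col1a2 and Fn1 had means below 0, at -4.91, -3.36 and -3.89. These 3 were lower at an unadjusted limma p under 0.05, and 0 were called. The other 4 had means above 0, at 0.89 for Col3a1, 0.66 for Vim, 0.45 for Pdgfra and 0.24 for S100a4, and 0 of them were under 0.05. Of all genes, 11.5% were under 0.05 either way. The part of these markers in the members' ratios was not tested.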

How the data were processed

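RNA of both lines was compared on 4 arrays, each with 2 dyes. The authors deposited 1 table of log2 ratios; the sources used here give no image analysis, background correction or normalization. The log2 scale was read from the deposited values, whose commonest values lie 1 unit apart. The members and gene lists were chosen with earlier results of these data known. Of 20355 probes, 14030 had 1 gene symbol in the platform annotation, 5 several and 6320 none; 13994 were matched to RefSeq (GRCm38.p6) by gene identifier. Values beyond 15 either way (418) were left out. Rows 1 to 6000 were read as deposited; for rows 8001 to 18000 arrays 2 to 4 were read 3 rows higher, from 18301 on 4 rows higher, and other rows were left out. Probes of a gene were averaged. Genes with 4 values were fitted in limma 3.58.1 (R 4.3.3, lmFit and eBayes) across all genes, with the mean over orientations and a dye term; calls needed a Benjamini-Hochberg adjusted p under 0.05. The fit was run on simulated independent noise with planted changes, and the only check was that fitted means lay near these changes. The simulation held no dye effect or row offset, so it does not test the fit for these. Summaries used Python 3.11.15 with pandas 2.3.3 and NumPy 2.4.6; figures used matplotlib 3.10.9. The number of arrays limits the precision.

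Named genes were all members, the lowest and highest gene of each sterol and lipid list, and genes of those lists with a mean past 1 either way; others named are cell type markers, the ones counted at an unadjusted p under 0.05, those measured on fewer arrays and neighbours of a member in the pathway, chosen after their values were seen. Alternatives changed the dye term, centring, scaling, eBayes, row reading, value limit, array minimum, probe choice and arrays left out.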

Additional observations from a re-analysis of the deposited data

Results flagged for a closer look

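Of 40 values with 4 arrays (8 members, their average and 31 other pathway genes), 2 had 1 array far from the other 3, and chance gives about 2. Ebp lay at 0.864 on array 2, with a gap to the next array of 0.89 of the whole range, and the other arrays were between -2.45 and -2.09. Pmvk lay at -1.224 on array 4 (0.877), against 0.50 to 0.74 on the others.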

How the results depend on the processing

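Limma called 0 genes (730 at an unadjusted p under 0.05). It called 3 with one probe per gene, 6 when the dye term was dropped and 1 after arrays were brought to a common spread; 0 of these were members. It called 0 under the other settings tried, with 276 to 990 genes at an unadjusted p under 0.05. Members at an unadjusted p under 0.05 numbered 2 with rows as deposited, where 7 members had all arrays (all genes 563 of 6843). The number was 1 in the first 6000 rows only, where 3 members lie (all genes 276 of 2238). Leaving out 1 array gave 0 to 1, with the shares of all genes given above. The number was 6 without the dye term (all genes 735 of 6327) and 5 with scaled arrays (763 of 6327), against 4 in the main fit (730 of 6327). Members with a mean below -1 numbered 0 with moved rows only, a setting added after the data were seen, and 1 to 2 without 1 array. In the main fit the number was 2, beside 7.7% of all genes. The members' average was -0.44 with rows as deposited. Of the pathway genes, the number at an unadjusted p under 0.05 was 1 without the dye term, 0 with rows as deposited, 0 in the first 6000 rows only and 1 to 3 without 1 array, against 2. Without 1 array, Mvd ranged from -0.10 (array 4 left out) over -0.09 (array 2) to 0.18 (array 3), and with rows as deposited Fdps (0.53) and Sqle (0.31) changed sign. The causes were not tested. The other 99 of 103 values of single members kept their sign, and 0 members were called under any setting. Changing the dye term, eBayes, value limit or array minimum left every member's mean as it was, so these settings say nothing of its sign. Using moved rows only could not change the means of the 5 members it holds. One probe per gene could not change those of the 7 members with 1 probe. Nor did the row reading change the means of Mvk, Mvd and Ebp, which lie in rows read as deposited. All arrays belong to 1 group, and each ratio already compares both lines on the same array, so no further pairing was used. The number of arrays limits the precision.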
